A study of Homo sapiens with 6 samples.

Results

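SRGN, LCP1, GPRIN3 and EMB were grouped here as genes known best from blood cells or leukocyte function, a label that was not tested. They were read abundantly in the gastric cancer line HGC-27 and hardly or not at all in the gastric cancer line AGS. These 4 genes, of 51103 in the count tables, were picked by name for that difference, so their levels in the lines are a description and carry no test. HGC-27 comes from an undifferentiated gastric carcinoma and AGS from a gastric adenocarcinoma. The groups were HGC-27 with a lentivirus for NINJ1 overexpression (2 libraries), HGC-27 with a negative control (1 library), AGS with the NINJ1 lentivirus (2 libraries) and AGS with a negative control (1 library). NINJ1 encodes ninjurin-1, a cell-surface adhesion protein that also takes part in plasma membrane rupture during lytic cell death. RNA was harvested after 48 hours, and polyadenylated RNA was sequenced.

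The sample titles and the file names disagree on the line of both NINJ1 replicate 2 libraries. Lines are given here as in the file names, so HGC-27 NINJ1 replicate 2 is the library titled AGS and AGS NINJ1 replicate 2 is the library titled HGC-27. Total counts ran from 12619684 to 18175697 per library. The HGC-27 control stood apart from the other 5 libraries: 19371 genes had a count in it, against 22839 to 23396 in the others, and its counts were lower for genes rich in G and C. NINJ1 had 264 and 300 counts in HGC-27 NINJ1 libraries and 71 in the HGC-27 control, a log2 change of 1.89 ± 0.24 (SE; edgeR quasi-likelihood test, adjusted p = 3.22e-08), or 0.50 after a correction for GC content (adjusted p = 0.0685). In AGS it went against the label, with 261 and 221 counts in the libraries labelled NINJ1 and 402 in the control, a log2 change of -0.68 ± 0.19 (SE; edgeR adjusted p = 0.0148), in a comparison where 9.3% of tested genes were lower and 5.73% higher past the threshold. That call was lost with DESeq2 (adjusted p = 0.136) and without AGS NINJ1 replicate 2 (-0.54, edgeR adjusted p = 0.26). The NINJ1 changes of the lines differed (edgeR interaction adjusted p = 1.69e-08), as those of 54.2% of tested genes did. No label states that replicates came from separate cultures, so p-values cover the spread between libraries alone, and each control is assumed to vary like the NINJ1 pairs.

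Serglycin, the product of SRGN, is the proteoglycan core of secretory granules in mast cells, cytotoxic lymphocytes and other blood cells, where its glycosaminoglycan chains hold basic proteases. L-plastin, the product of LCP1, bundles actin filaments in leukocytes and is also made by many cancer cell lines of other origin. GPRIN3 belongs to a small family named for binding activated G protein alpha subunits and inducing neurite outgrowth. Embigin, the product of EMB, is an immunoglobulin-type membrane protein related to basigin that escorts monocarboxylate transporters to the cell surface.

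Of the 4 genes, LCP1 was matched in the RefSeq promoter table (GRCh38.p14); SRGN, GPRIN3 and EMB are named only. The LCP1 window is shown because this gene had the highest count of the 4 in every HGC-27 library. It covers chr13:46182128-46182427 on the minus strand, from 250 bases before to 50 after the start, and lies inside the span that GENCODE gives LCP1. Capitals mark the motif matches.
LCP1 promoter: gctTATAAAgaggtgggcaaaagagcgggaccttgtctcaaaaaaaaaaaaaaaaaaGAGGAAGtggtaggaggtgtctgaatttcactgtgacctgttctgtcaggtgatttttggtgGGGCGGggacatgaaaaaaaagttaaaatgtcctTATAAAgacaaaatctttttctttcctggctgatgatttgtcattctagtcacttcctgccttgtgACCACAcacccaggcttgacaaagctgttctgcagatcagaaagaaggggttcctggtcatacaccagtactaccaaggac

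Both strands were searched for 6 motifs, none of which overlapped another here. GAGGAAG, a letter string of the kind bound by the blood cell factor SPI1, was found once and is in 13.6% of the 35116 promoter windows of this length. TGTGGT, the RUNX string, was found on the opposite strand, printed as ACCACA, and is in 13.1% of windows. TATAAA was found at 2 places and is in 11.5% of windows, and GGGCGG, the GC box, was found once and is in 45% of windows. AGATAA, the GATA string in 10.3% of windows, and TGACTCA, the AP-1 string in 4.95%, are not among these letters. The window has 42.7% GC and 2 CpG, against medians of 58.7% and 14 over all windows.

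SRGN (ENSG00000122862, GRCh38 chromosome 10, 69088106 to 69104811, plus strand) had 2122 and 2335 counts in HGC-27 NINJ1 libraries and 11617 in the HGC-27 control. In AGS it had 0 and 0 counts in NINJ1 libraries and 2 in the control. The authors' FPKM, a count per gene length and library total, was 120 and 127 in HGC-27 NINJ1 libraries and 524 in the HGC-27 control. By FPKM, SRGN ranked 170th and 175th of all genes in HGC-27 NINJ1 libraries and 24th in the HGC-27 control. Its AGS level was 0.118 FPKM in the control and under 0.195 and 0.185 FPKM in the NINJ1 libraries, the level of 3 reads. All 3 HGC-27 libraries were thus far above all 3 AGS libraries. The pooled ratio of HGC-27 to AGS was 6710, with a 95% interval of 1860 to 55400 that covers counting error only.

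LCP1 (ENSG00000136167, chromosome 13, 46125920 to 46211871, minus strand) had 11738 and 12768 counts in HGC-27 NINJ1 libraries and 18062 in the HGC-27 control. In AGS it had 7 and 8 counts in NINJ1 libraries and 0 in the control. Its level was the steadiest of the 4 genes within HGC-27, at 160 and 168 FPKM in NINJ1 libraries and 196 FPKM in the control, a ratio of highest to lowest of 1.23. The AGS NINJ1 libraries held 0.110 and 0.119 FPKM, and the pooled ratio of HGC-27 to AGS was 2370 (95% interval 1440 to 4240, counting error only).

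GPRIN3 (ENSG00000185477, chromosome 4, 89236386 to 89308010, minus strand) had 3117 and 2437 counts in HGC-27 NINJ1 libraries, 12852 in the HGC-27 control and 0 in each of the 3 AGS libraries. With a longest transcript of 14244 bases its level per length was lower than that of SRGN, at 14.2 and 10.7 FPKM in HGC-27 NINJ1 libraries and 46.5 FPKM in the control. Taking 3 counts in each AGS library as the limit that a count of 0 allows, GPRIN3 was at least 1600-fold higher in HGC-27.

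EMB (ENSG00000170571, chromosome 5, 50396192 to 50443248, minus strand) was the lowest of the 4 in HGC-27. It had 697 and 550 counts in HGC-27 NINJ1 libraries, 1249 in the HGC-27 control and 0 in each of the 3 AGS libraries. Its FPKM was 9.15 and 6.95 in HGC-27 NINJ1 libraries and 13.1 in the control, and by the same limit of 3 counts per AGS library it was at least 226-fold higher in HGC-27.

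**Figure D1:**
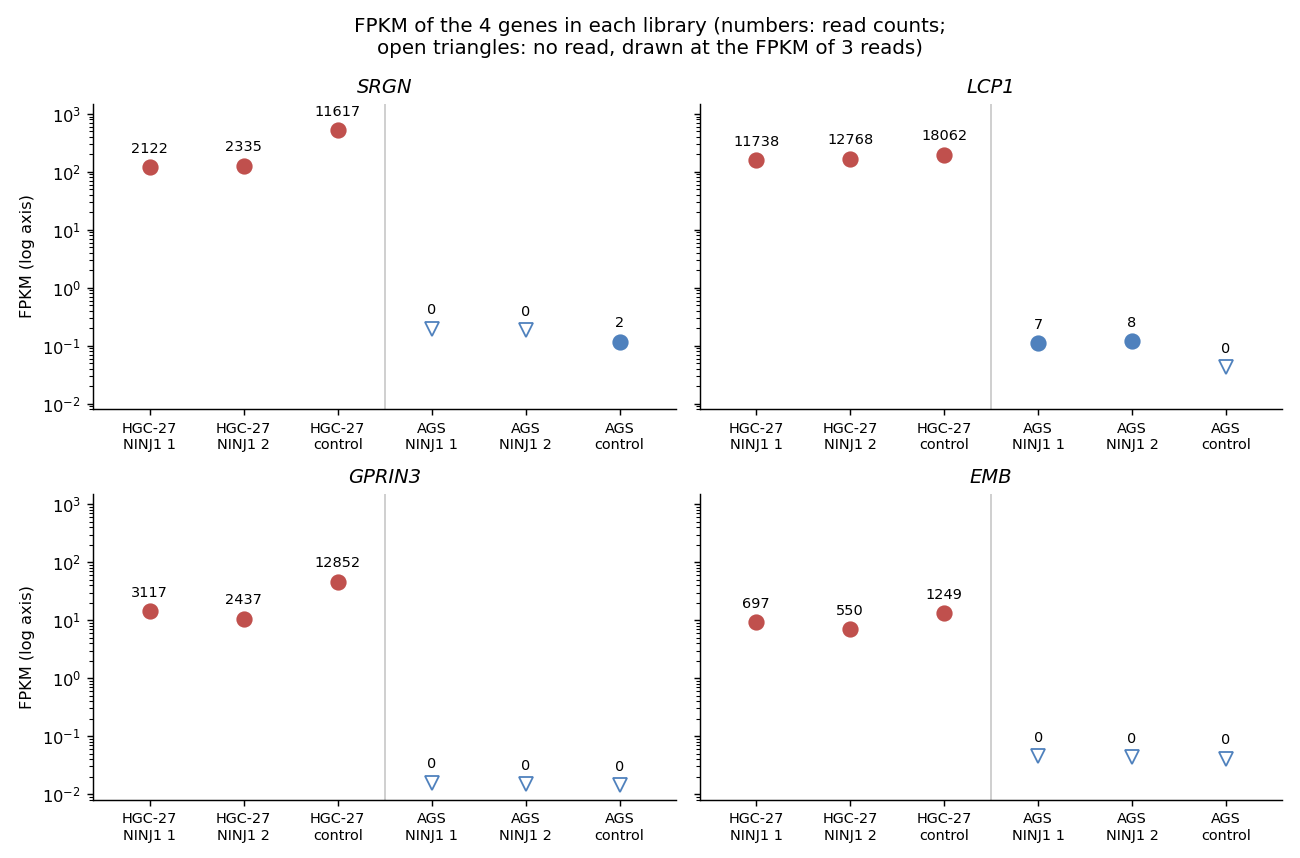
Level of SRGN, LCP1, GPRIN3 and EMB in each of the 6 libraries, in the authors' FPKM on a log axis; each point is 1 library, the numbers are read counts, and open triangles mark libraries with no read, drawn at the FPKM of 3 reads. SRGN reached 524 FPKM and GPRIN3 46.5 FPKM in the HGC-27 control, above both HGC-27 NINJ1 libraries, while LCP1 stayed between 160 and 196 FPKM in HGC-27.

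The mean over the 3 HGC-27 libraries was 257 ± 231 FPKM for SRGN, 175 ± 19.1 for LCP1, 23.8 ± 19.8 for GPRIN3 and 9.73 ± 3.1 for EMB (SD, n = 3, over both treatments). SRGN and LCP1 changed places with the library: LCP1 was the higher in both NINJ1 libraries and SRGN in the control. GPRIN3 was above EMB in all 3 libraries. The NINJ1 libraries differed from each other by 5.75% of their mean FPKM for SRGN, 4.6% for LCP1, 28.2% for GPRIN3 and 27.3% for EMB. If the titles were followed instead, HGC-27 would hold a NINJ1 library with 0 SRGN, 0 GPRIN3 and 0 EMB counts, and AGS one with 2335, 2437 and 550.

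At least 100 counts in each HGC-27 library and at most 20 in each AGS library were found for 61 of 51103 genes, or 0.119%. By mean FPKM in HGC-27, SRGN ranked 1, LCP1 2, GPRIN3 7 and EMB 15 among the 61, of which 48 are protein coding. Within the thresholds, the lowest HGC-27 counts of the 4 genes ran from 550 to 11738 and their highest AGS counts from 0 to 8. Just inside the HGC-27 threshold stood ARL10, with a lowest count of 100, and LSR, with 102.

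The profiles most like those of the 4 genes were picked by Pearson's r of log2(CPM + 1) over the 6 libraries, which share the gap between lines and the deviating HGC-27 control. Nearest to SRGN stood EPHX4 (r = 0.9996), with 136 and 130 counts in HGC-27 NINJ1 libraries, 291 in the HGC-27 control and 0 in AGS, followed by SIPA1L1, AL079341.1 and CTSC; CTSC had 236 to 259 counts in AGS. Nearest to LCP1 stood MPDZ (r = 0.9986), with 1231 and 1204 counts in HGC-27 NINJ1 libraries, 1850 in the control and 0 in AGS, followed by UNC13A, ZNF233 and SDR42E1; UNC13A had 332 to 347 counts in AGS. SIPA1L1 came nearest to GPRIN3, with 283 and 272 counts in HGC-27 NINJ1 libraries, 406 in the control and 54 to 57 in AGS, followed by TIAM1, EPHX4 and MYSM1, the last with 308 to 340 counts in AGS. A high r therefore did not require near absence from AGS. TSPAN6 came nearest to EMB, with 501 and 420 counts in HGC-27 NINJ1 libraries, 850 in the control and 0 in AGS, followed by ANGPT1, STEAP4 and TDRD9. Among the 4 genes themselves, r ran from 0.9857 for SRGN and LCP1 to 0.9991 for SRGN and GPRIN3. With a pseudocount of 0.1, GPRIN3 and EMB were the most alike (r = 0.9987, against 0.9966 for SRGN and GPRIN3).

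Within HGC-27, all 4 genes were lower in NINJ1 libraries than in the control. Both NINJ1 libraries lay below the control in CPM (counts per library total, here scaled) for each of them, which held for 42.9% of the 17617 genes tested. All 4 passed the edgeR quasi-likelihood test in that direction (Benjamini-Hochberg adjusted p under 0.05), as did 29.1% of tested genes; 63.0% passed in either direction. The 4 genes were chosen from counts of the same 3 HGC-27 libraries. Of the 61 genes with the same pattern, 29 were lower past the threshold (47.5%) and 11 higher, with a median log2 change of -0.48, against a median of 0.12 over all genes tested. The 61 had a median GC content of 45.2%. Tested genes of 40 to 45% GC had a median of -0.57, with 50.4% lower, and those of 45 to 50% had -0.15, with 31.0% lower. The pattern also uses the counts of the HGC-27 control, so these values are a description.

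SRGN had 139 and 148 scaled CPM in NINJ1 libraries, against 801 in the control. Its log2 change was -2.48 ± 0.12 (SE; edgeR adjusted p = 3.44e-17), 5.58-fold lower, and 2.0% of tested genes lay below it. GPRIN3 had 204 and 155 scaled CPM in NINJ1 libraries, against 886 in the control. It fell by 2.30 ± 0.13 on the log2 scale (SE; edgeR adjusted p = 1.15e-15), 4.94-fold. EMB had 45.6 and 35 scaled CPM in NINJ1 libraries and 86.1 in the control, and fell by 1.10 ± 0.17 on the log2 scale (SE; edgeR adjusted p = 1.06e-06). LCP1, at 767 and 812 scaled CPM in NINJ1 libraries and 1245 in the control, fell by 0.66 ± 0.12 (SE; edgeR adjusted p = 1.67e-05), the smallest change of the 4.

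Base composition moved with these changes. The longest transcripts of SRGN, GPRIN3 and EMB have 38.1%, 39.7% and 37.0% GC, and the 2447 tested genes of 35 to 40% GC had a median log2 change of -0.77, with 63.8% of them lower past the threshold. LCP1, at 45.4% GC, lies in a class with a median of -0.15. Genes of 65% GC and above had a median of 3.61. With counts corrected for GC content, all 4 genes were still lower past the threshold, as were 28.7% of tested genes. The corrected log2 change was -1.80 ± 0.10 for SRGN (SE; edgeR adjusted p = 1.49e-11) and -1.67 ± 0.11 for GPRIN3 (SE; edgeR adjusted p = 4.98e-11). It was -0.43 ± 0.14 for EMB (SE; edgeR adjusted p = 0.0158) and -0.42 ± 0.096 for LCP1 (SE; edgeR adjusted p = 0.000921). After correction 5.16% of tested genes lay below SRGN and 5.99% below GPRIN3, but 33.6% below EMB and 34.0% below LCP1. The part of the single control library's other differences in these values was not tested.

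**Figure D2:**
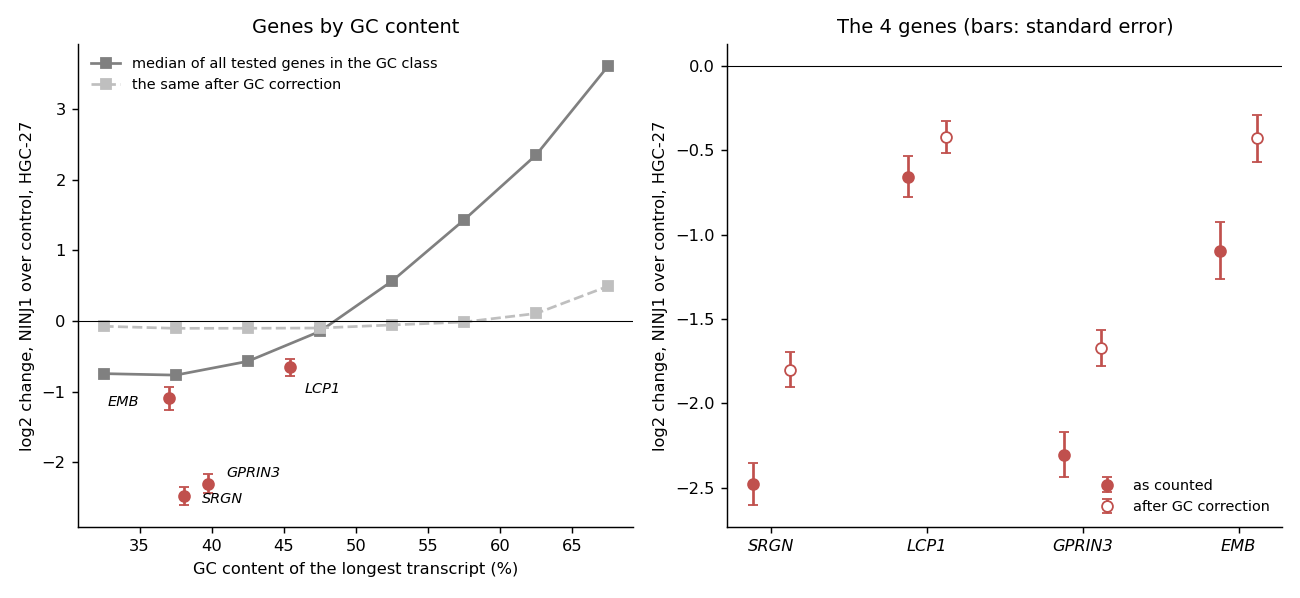
Log2 change of NINJ1 libraries over the control in HGC-27. Left, the 4 genes (circles, SE bars) by GC content of the longest transcript, with the median of all tested genes per GC class before (solid line) and after (dashed line) GC correction; right, the 4 genes as counted (filled) and after correction (open), where SRGN moves from -2.48 to -1.80 and EMB from -1.10 to -0.43.

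In AGS, none of the 4 genes reached the minimum count of 10 in any library. LCP1 had 7 and 8 counts in NINJ1 libraries and 0 in the control. It entered the fit through its HGC-27 counts alone, so its fitted change in AGS is no support for a difference. Set against 3 counts in the control, its ratio was 2.69, which leaves out the counting error of the NINJ1 libraries and is no lower limit. Counting intervals were 2.81 to 14.4 and 3.45 to 15.8 counts in AGS NINJ1 libraries and 0 to 3.69 in the AGS control, and they overlapped. In AGS NINJ1 libraries LCP1 stood at 0.579 CPM on average. That level was 0.0654% of the HGC-27 mean of 884 CPM, both values being per library total without the scaling used above.

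Markers of blood cells were near absent in the line that held these 4 genes. Of 22 leukocyte markers, 9 were at 0 in all HGC-27 libraries and 9 in all AGS libraries, and 2 reached 1 FPKM in any HGC-27 library. PTPRC, which encodes the pan-leukocyte antigen CD45, had 1 and 1 counts in HGC-27 NINJ1 libraries and 0 in the HGC-27 control and in AGS. CD48, TYROBP, CD2, CD3D, CD3E and MS4A1 were at 0 in all 6 libraries. The summed level of the list was 0.808 to 4.82 FPKM in HGC-27 and 3.28 to 6.3 FPKM in AGS, and it was lowest in the HGC-27 control, where SRGN and GPRIN3 were highest. GC content moved with that low sum: CD37 and ITGB2 were higher in HGC-27 NINJ1 libraries by 2.30 and 1.61 on the log2 scale, but by 0.67 and -0.27 after GC correction, where no marker passed. None of the 6 markers tested differed between HGC-27 and AGS past the threshold, as 6.14% of tested genes did. CD37, the marker with the highest mean level, differed by 0.31 ± 0.61 on the log2 scale (SE; edgeR adjusted p = 0.786). Its difference was 1.11 without the HGC-27 control (edgeR adjusted p = 0.000964) or without the AGS control (edgeR adjusted p = 0.000981). Those fits called 7117 and 7082 genes between lines, against 1082 with all libraries.

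**Figure D3:**
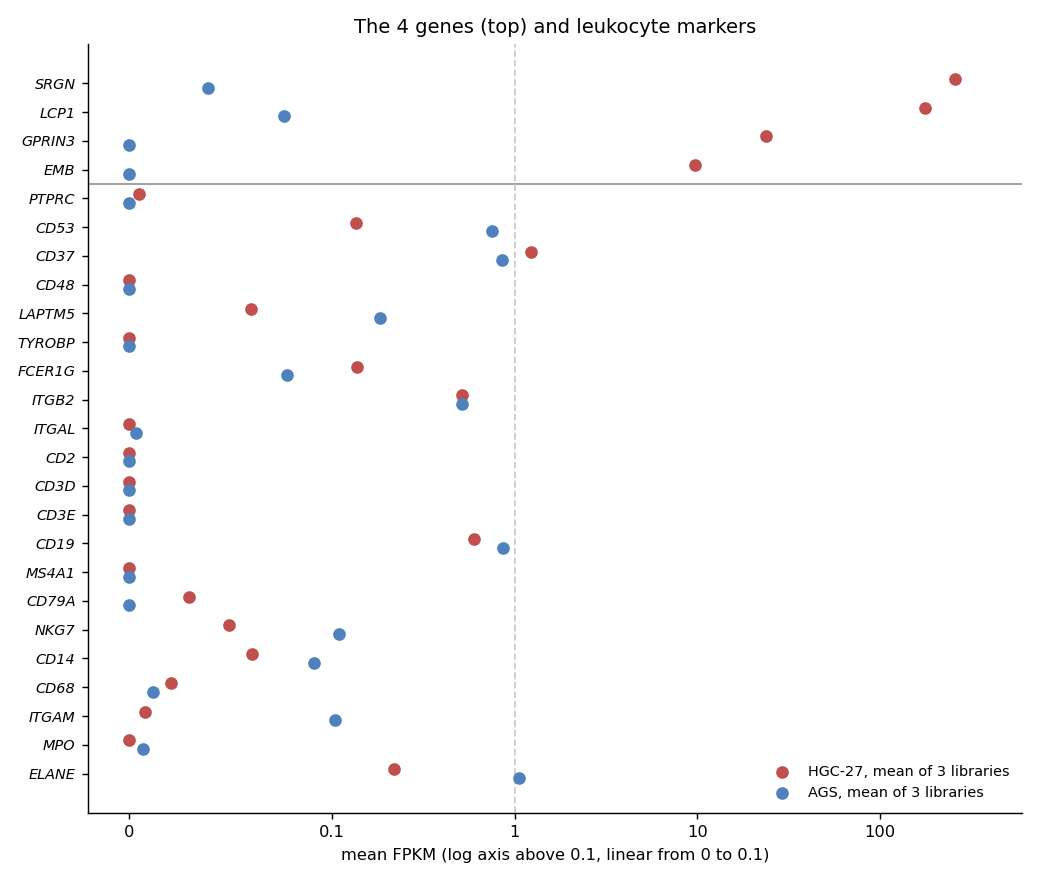
Mean FPKM over 3 HGC-27 libraries (red) and 3 AGS libraries (blue) for the 4 genes, above the line, and leukocyte markers, below it; the axis is linear from 0 to 0.1 and logarithmic above, and the dashed line marks 1 FPKM. The 4 genes lie between 9.73 and 257 FPKM in HGC-27, to the right of every leukocyte marker drawn, in either line.

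Markers of other cell types were checked in the same way. The 8 platelet and red cell markers summed to 0.377 to 1.97 FPKM in HGC-27 and 2.53 to 3.52 FPKM in AGS, and the 8 endothelial markers to 0.134 to 0.568 FPKM in HGC-27 and 0.803 to 1.81 FPKM in AGS. HBA1 (haemoglobin) and ERG (an endothelial factor) were at 0 in HGC-27, against 19 to 26 and 58 to 114 counts in AGS. The epithelial markers summed to 134 to 207 FPKM in HGC-27 and 123 to 153 FPKM in AGS, with KRT8 at 53.7 and 61.4 FPKM in HGC-27 NINJ1 libraries and 82.8 in the control. CDH1, the epithelial cadherin, stayed at 0.454 FPKM or less in HGC-27 and at 0.0464 FPKM or less in AGS. Of the 7 mesenchymal markers tested, FN1 (fibronectin) alone passed between lines, as 6.14% of all genes tested did. FN1 was higher in HGC-27 by 4.21 ± 0.22 on the log2 scale (SE; edgeR adjusted p = 0.00207), while VIM (vimentin) stood at -0.46 and the list's median was 0.094.

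Of 25 transcription factors of blood cells, 14 were tested, with 1 higher and 2 lower in HGC-27, against 2.87% higher and 3.27% lower over all genes tested. IKZF3 (Aiolos, a lymphoid factor) had 83 to 109 counts in HGC-27 and 0 to 3 in AGS, while RUNX1 and RUNX2 were lower in HGC-27 by log2 changes of -1.27 and -3.52. Of 18 actin regulators known from leukocytes, 10 were tested: DOCK8 was higher (2.5) and EVL and DOCK2 lower (-1.37 and -4.64). In all, 16 genes of the lists passed in this comparison, and 12 of these calls were lost when 1 of the NINJ1 libraries was left out (the highest adjusted p was 0.0769 for IKZF3 and 0.128 for DOCK8). FN1, ESPN, SDC2 and XYLT1 kept theirs with each library left out. The lists hold 174 genes, not all of which were tested, and 6.14% of all genes tested passed between lines.

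Relatives of LCP1 were read in both lines. PLS3, the T-plastin of solid tissues, was picked for its kinship after its values were seen, as were PLS1, BSG, NPTN, GPRIN1 and GPRIN2 below. It had 141 and 118 FPKM in HGC-27 NINJ1 libraries, 269 in the HGC-27 control and 119 to 136 in AGS, and differed between lines by 0.51 ± 0.30 on the log2 scale (SE; edgeR adjusted p = 0.35). PLS1, the intestinal plastin, had 7.12, 6.74 and 9.43 FPKM in HGC-27 and 6.64 to 10.8 in AGS. Of 9 tested plastins and actin bundlers, ESPN (espin) alone passed between lines, as 6.14% of all genes tested did. ESPN was lower in HGC-27 by a log2 change of -4.92. Between NINJ1 and control in HGC-27, PLS3 fell by 1.45 and SVIL (supervillin) by 0.98 on the log2 scale, while FSCN1 (fascin) changed by 2.35 before GC correction and by -0.46 after it.

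The proteins that serglycin stores were hardly read. Of 12 granule proteins, 1 was tested, PRTN3 (proteinase 3), with 22 and 26 counts in HGC-27 NINJ1 libraries, 0 in the HGC-27 control and 20 to 80 in AGS. Of 15 other proteoglycan cores, 10 were tested, none higher and 2 lower in HGC-27 (2.87% and 3.27% over all genes tested): SDC2 (4 to 7 counts in HGC-27, 369 to 437 in AGS) and SDC4, both syndecans. Of the 20 enzymes that build and sulphate glycosaminoglycan chains, 18 were tested. UST, a sulphotransferase, was higher in HGC-27 (2.44) and XYLT1, which starts the chain, lower (-6.63). In HGC-27, 6 proteoglycan cores were higher and 2 lower in NINJ1 libraries than in the control, and 9 chain enzymes were higher and 1 lower, where 34.0% of tested genes were higher and 29.1% lower. AGRN (agrin) stood at 3.37 and CHPF at 4.01 on the log2 scale. With GC correction, 2 cores were higher and 3 lower, and 4 enzymes higher and 5 lower. Over all 17617 genes tested, 3608 were higher and 5054 lower with that correction. AGRN then stood at 0.12 and CHPF at 0.74.

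Relatives and partners of embigin and of GPRIN3 were read in both lines. BSG (basigin) had 153 and 147 FPKM in HGC-27 NINJ1 libraries, 26.7 in the HGC-27 control and 169 to 214 in AGS. NPTN (neuroplastin) had 8.2 to 14.9 FPKM in HGC-27 and 21.8 to 22.7 in AGS. None of the 8 genes in that list passed between lines with edgeR, where 1082 of all genes did. NPTN passed with DESeq2 (-0.75, adjusted p = 0.0241) and with GC correction (-0.75, edgeR adjusted p = 0.0157). Those settings called 2459 and 3691 genes between lines. In HGC-27, SLC16A3, a lactate exporter, was higher in NINJ1 libraries (4.53, or 2.15 with GC correction) and LDHA lower (-1.72, or -1.37). GPRIN1 had 11.2 and 13.4 FPKM in HGC-27 NINJ1 libraries, 1.54 in the control and 5.82 to 9.03 in AGS, and GPRIN2 0.475 to 3.88 in HGC-27 and 1.41 to 3.13 in AGS. Of 12 tested GPRIN and G alpha genes, GNAZ and GNAI1 were lower in HGC-27, by log2 changes of -2.54 and -1.04, against 3.27% of all genes tested. Without the HGC-27 control, GPRIN1 (0.62) and GPRIN2 (1.15) passed as higher in HGC-27 and PLS1 (-0.58) and NPTN (-0.61) as lower. In that fit 7117 genes passed between lines, against 1082 with all libraries.

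**Figure D4:**
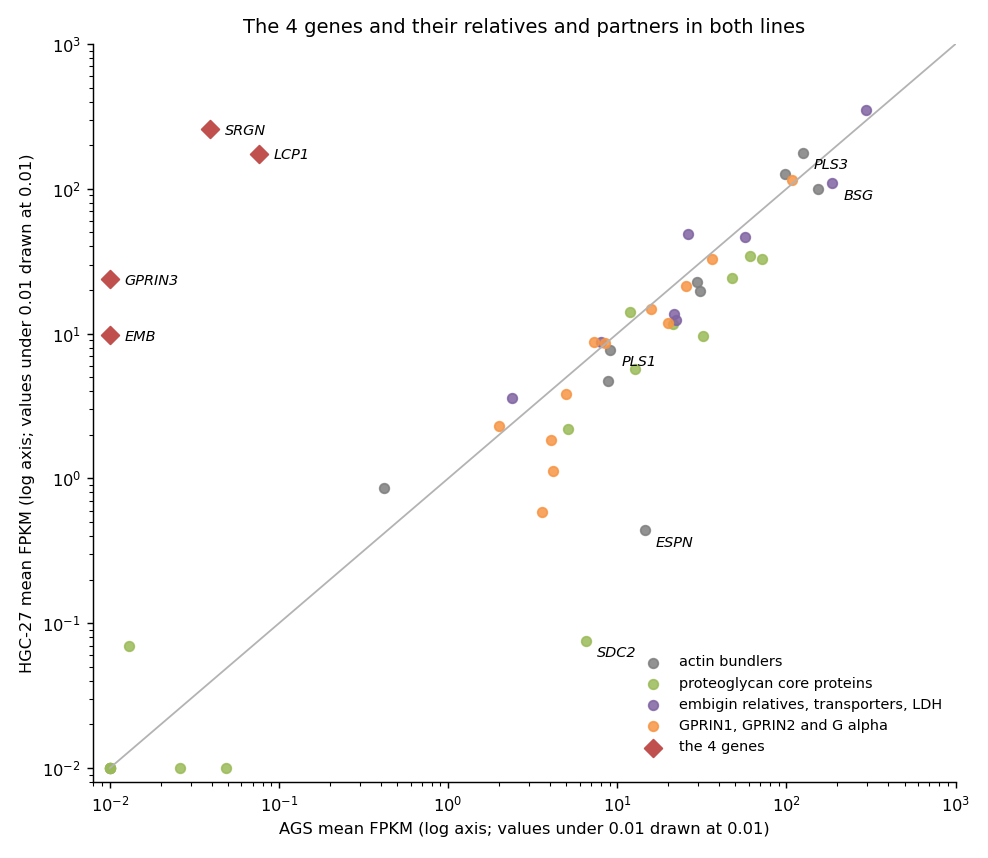
Mean FPKM in HGC-27 (vertical) against AGS (horizontal), both on log axes with values under 0.01 drawn at 0.01; each point is 1 gene, coloured by list, and the line marks equal levels. SRGN, LCP1, GPRIN3 and EMB (diamonds) stand at the upper left, PLS3 (176 FPKM in HGC-27, 125 in AGS) and BSG (109 in HGC-27, 187 in AGS) lie near the line, and SDC2 and ESPN lie below it.

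The chromosomal neighbours given here did not share the pattern of the 4 genes. KIF1BP and VPS26A, which flank SRGN, had at least 590 counts in every library. CPB2 and LRRC63, which flank LCP1, had at most 6 counts in any library. TIGD2, beside GPRIN3, had 376 and 280 counts in HGC-27 NINJ1 libraries, 782 in the HGC-27 control and 267 to 281 in AGS. PARP8, beside EMB, had 692 to 1118 counts. EMBP1, a pseudogene named for EMB, had 34 to 72 counts in HGC-27 and 32 to 43 in AGS. SRGNP1 had 1 count in all.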

How the data were processed

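Per the labels' protocols, a NEBNext Ultra kit was used on polyadenylated RNA. HISAT2, HTSeq 0.13.5 and GRCh38 are named in the submitters' processing notes; the strand setting is not given in the sources used here. The deposited tables hold whole-number read counts and the authors' FPKM for 51103 genes. Positions and GC content came from GENCODE release 29.

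Counts were tested with edgeR 4.0.16 (R 4.3.3): filterByExpr with a minimum count of 10 (17617 genes), TMM scaling, two-sided quasi-likelihood tests and Benjamini-Hochberg adjustment at 0.05. Each line was fitted with a mean per treatment, from which NINJ1 was set against control and the lines' changes against each other; HGC-27 was compared with AGS with treatment as a term. The SE printed with an edgeR log2 change is its absolute value divided by the square root of the test's F statistic. GC content was corrected by a loess offset (span 0.3). A fold against libraries at 0 used 3 counts per library. The 4 genes and the 13 gene lists were chosen with earlier results of these data known. Named genes are the 4 genes, NINJ1, neighbours and copies, the 4 most alike per gene, and of each list and comparison up to 3 past the threshold with the smallest p or, where none passed, the one with the highest mean FPKM. Relatives printed outside that rule are marked in the text, and some neighbours, markers and sequences are not reported here. Alternatives were DESeq2 1.42.0, its size factors, no filter, GC correction, lines as in the titles, a replicate block and each library left out. A control could not be left out of the NINJ1 comparison of its own line. The test was tried on simulated counts.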

Additional observations from a re-analysis of the deposited data

Results flagged for a closer look

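Given here are NINJ1, LCP1 and those listed genes that the naming rule gives in both lines, where the NINJ1 change differed between HGC-27 and AGS by a test of the difference itself (edgeR interaction, adjusted p). Other listed genes were not gone through. Such a difference was found for 54.2% of tested genes, and the deviating HGC-27 control enters each of them. LCP1 had a log2 change of -0.66 in HGC-27, and in AGS 7 and 8 counts in NINJ1 libraries and 0 in the control (adjusted p = 0.000227, or 0.00104 with GC correction). LCP1 entered the fit through its HGC-27 counts alone, below the minimum count of 10 in AGS, so this p is no support for a difference. NINJ1 itself changed by 1.89 in HGC-27 and -0.68 in AGS (adjusted p = 1.69e-08, or 0.00828 with GC correction).

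Of these listed genes, 5 kept a difference with GC correction. KRT8 changed by -0.92 in HGC-27 and -0.44 in AGS (adjusted p = 0.0232, corrected 1.06e-09). PRTN3 changed by 7.49 in HGC-27, where the control had 0 counts, so the fitted size depends on the prior count, and by -1.90 in AGS (adjusted p = 8.3e-07, corrected 0.0143). AGRN changed by 3.37 in HGC-27 and -1.27 in AGS (adjusted p = 4.7e-18, corrected 0.000107). SLC16A3 changed by 4.53 in HGC-27 and -0.57 in AGS (adjusted p = 6.95e-17, corrected 7.46e-09). LDHA changed by -1.72 in HGC-27 and -0.44 in AGS (adjusted p = 1.82e-07, corrected 9.9e-06). With GC correction the changes in HGC-27 and AGS were 0.12 and -0.77 for AGRN, and 2.15 and -0.24 for SLC16A3. They were -2.16 and -0.25 for KRT8, 7.23 and -1.44 for PRTN3, and -1.37 and -0.42 for LDHA. Of these, AGRN and PRTN3 in HGC-27 (edgeR adjusted p = 0.403 and 0.0682) and KRT8 and SLC16A3 in AGS (edgeR adjusted p = 0.0641 and 0.124) did not pass.

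For 2 others the difference did not pass with GC correction. SNAI2 changed by -2.25 in HGC-27 and -1.09 in AGS (adjusted p = 0.0185, corrected 0.264). CEBPB changed by 2.65 in HGC-27 and -0.67 in AGS (adjusted p = 6.4e-14, corrected 0.458).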

How the results depend on the processing

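SRGN, LCP1, GPRIN3 and EMB stayed lower past the threshold in HGC-27 NINJ1 libraries under every alternative run except lines as in the titles, where the log2 changes were -3.53, -1.70, -3.12 and -1.92 with edgeR adjusted p of 0.514, 0.769, 0.57 and 0.701. Without both replicate 2 libraries there was no test, and all 4 values were negative (-2.53, -0.70, -2.12 and -0.92). With a library left out they ran from -2.54 to -2.42 for SRGN, -0.71 to -0.60 for LCP1, -2.53 to -2.13 for GPRIN3 and -1.31 to -0.93 for EMB. The HGC-27 control, the only one of its line, could not be left out, so these ranges never remove that deviating library. The fitted LCP1 change in AGS, no support for a difference on 15 reads, was 6.02 on the log2 scale with edgeR (adjusted p = 0.00688), 5.39 with DESeq2 (adjusted p = 0.0786), 15.5 with the titles (adjusted p = 0.884) and 5.96 to 6.11 with a library left out. The pattern held for 105 genes at 50 counts, 13 at 400 counts and 36 with at most 5 counts in AGS.

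Following the titles, edgeR called 2149 genes for NINJ1 in HGC-27, 0 in AGS (595 at unadjusted p under 0.05), 0 for the difference (4459 unadjusted) and 0 between lines (52 unadjusted); no other tool was run there. For NINJ1 in AGS, 2648 calls became 1308 with DESeq2 and 935 to 4712 with a library left out. Between lines, 1082 calls became 2459 with DESeq2, 3691 with GC correction, 117 with the replicate block and 114 to 7117 with a library left out, highest without the HGC-27 control. Replicate differences correlated between lines at r = 0.0605 over 11223 genes. With a single replicate difference per line, this cannot decide whether the replicate numbers pair the libraries. The replicate block ended no call of the 4 genes.

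GC correction turned the NINJ1 change in HGC-27 for ITGB2 (-0.27), ITGA2B (-0.58), CEBPB (-0.38), GATA2 (-0.097), FSCN1 (-0.46), SDC1 (-0.019), CHPF2 (-0.087), BSG (-0.077), GNA11 (-0.25) and GPRIN2 (-0.23). The titles turned FN1 (1.86) and CEBPB (0.13) in AGS. The causes were not tested. With 1 control per line, effects of that library and of the vector cannot be told apart.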

Other observations

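The remaining genes that the naming rule gives are set down here as log2 changes of NINJ1 against control, with the value after GC correction in HGC-27. Among leukocyte markers in HGC-27, 3 of 6 tested were higher, against 34.0% of all genes tested, and none kept the call after correction: CD37 2.30 (0.67), ITGB2 1.61 (-0.27) and ELANE 5.26 (4.99), the last on 4 and 6 counts in NINJ1 libraries and 0 in the control. ITGA2B, a platelet integrin, changed by 1.51 (-0.58). PECAM1, an endothelial adhesion protein, fell by 2.59 in HGC-27 (-2.78 after correction) and by 2.73 in AGS. Of 5 epithelial markers tested in HGC-27, 4 were lower and 1 higher, against 29.1% and 34.0% of all genes tested. KRT18, KRT8 and EPCAM were lower at -1.02 (-2.18), -0.92 (-2.16) and -1.40 (-1.30), and ELF3 was higher at 0.88 (-0.33). Of 7 mesenchymal markers tested in HGC-27, 6 were lower and 1 higher. VIM, SNAI2 and FN1 were lower at -1.16 (-1.05), -2.25 (-1.71) and -1.15 (-0.66), and TWIST1 was higher at 3.44 (2.08).

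Of 14 transcription factors of blood cells tested in HGC-27, 5 were higher and 3 lower, against 34.0% and 29.1% of all genes tested. CEBPB, GATA2 and CEBPA changed by 2.65 (-0.38), 1.75 (-0.097) and 8.97 (8.70), the last with 52 and 82 counts in NINJ1 libraries and 0 in the control. The lower ones were NFE2 at -1.82 (-2.86), MYB at -0.73 (-0.39) and EBF1 at -2.72 (-2.16). DOCK8, ARPC1B and MYO1G changed by -1.77 (-1.71), 3.03 (1.17) and 1.36 (0.043). GPC1 and SDC1 changed by 3.67 (0.56) and 1.89 (-0.019), B4GALT7 and CHPF2 by 3.72 (1.99) and 2.05 (-0.087). BSG changed by 2.10 (-0.077), GPRIN1 by 2.60 (0.23), GNA11 by 2.16 (-0.25) and GNAI3 by -1.23 (-0.71).

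In AGS, genes that the rule gives as lower in NINJ1 libraries, with the GC-corrected value in brackets, were ELF3 -1.09 (-0.91), FN1 -1.61 (-1.62), SNAI2 -1.09 (-1.11), RUNX2 -1.71 (-1.68), CEBPB -0.67 (-0.22), RUNX3 -0.48 (-0.28), WIPF1 -0.61 (-0.58) and DOCK2 -2.01 (-1.95). ESPN stood at -0.94 (-0.34), SVIL at -0.66 (-0.59), CAPG at -0.53 (-0.28), HSPG2 at -1.52 (-1.12), CSPG4 at -0.73 (-0.37), CHST3 at -0.52 (-0.32), SLC16A6 at -0.91 (-0.93), GNAS at -0.47 (-0.25), GNAI2 at -0.45 (-0.27) and GPRIN2 at -1.16 (-0.79). ZEB2 at 1.03 (1.00) and CSGALNACT2 at 0.49 (0.46) were higher. CD37 (-0.35) and HBA1 (0.50) did not pass the test.

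Many of these AGS calls depend on the setting. The naming rule gives 26 listed genes called in AGS, and other listed genes that passed there were not gone through. Over all genes tested in AGS, 9.3% were lower and 5.73% higher past the threshold. Of the 26, 8 lost the call with DESeq2 (SNAI2, RUNX2, RUNX3, WIPF1, GPRIN2, PRTN3, ZEB2 and CSGALNACT2). DESeq2 gave no adjusted p for DOCK2 and PECAM1. With GC correction 9 lost it: CAPG, CEBPB, ESPN, GNAI2, GNAS, GPRIN2, KRT8, RUNX3 and SLC16A3. Without AGS NINJ1 replicate 1 there were 13 calls lost, and without AGS NINJ1 replicate 2 there were 12.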
